A study of Mus musculus with 36 samples.

Results

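The cells described here were control mouse embryonic fibroblasts (MEFs) and the same kind of cells after 3 days of reprogramming towards induced pluripotent stem cells (iPSCs). Members were all libraries that the labels called control and MEF or control and reprogramming day 3, which gave 3 MEF libraries and 3 day 3 libraries, 6 of the 36 libraries of the series. The measurement was mRNA sequencing, given as the number of reads assigned to each gene. Day 3 is the earliest reprogramming time sampled in the series, so the comparison addresses what had changed by the first time at which cells expressing Oct4, Sox2, Klf4 and Myc were collected.

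Both groups were of strain 129 and labelled wild type in genotype, and both carried Cas9 and a lentivirus with a non-targeting control single guide RNA (sgRNA). The fibroblasts, called Cas9 TNG MKOS MEFs, came from E12.5 chimaeric embryos made with 1 targeted embryonic stem cell (ESC) clone, in which a doxycycline-inducible cassette holds the 4 factors and the fluorescent reporter mOrange. MEF libraries were made from unsorted cells in MEF medium 96 h after transduction, so cells of the host embryos may be among them. The paper took the host embryos from females of another strain, so strain 129 may not hold for every cell of the MEF libraries. For day 3, a small number of these MEFs were mixed with an excess of wild-type 129 MEFs and transduced 24 h before induction. They were then kept for 3 days in ESC medium with leukaemia inhibitory factor (LIF), doxycycline at 300 ng/ml and vitamin C at 10 ug/ml, and mOrange-positive cells were sorted. The factors, the medium (MEF medium held FGF2 and heparin), LIF, vitamin C, co-culture and the sort thus changed together, and their parts in any difference below cannot be told apart.

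As background, MEFs are mesenchymal cells that make collagen-rich matrix, carry stress fibres and migrate. Oct4 (gene Pou5f1), Sox2 and Klf4 are transcription factors of the pluripotent state, and Myc drives growth, ribosome production and cell division. In fibroblast reprogramming the first events known are loss of mesenchymal genes and gain of epithelial adhesion genes, known as the mesenchymal-to-epithelial transition, whereas the endogenous pluripotency network is switched on later and in few cells.

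Total counts were 19224103 to 31483041 in the MEF libraries and 31773575 to 32789531 at day 3. Values below are read counts divided by DESeq2 size factors, called normalised read counts, and at this depth 3 reads, the most that a count of 0 allows at 95% for counting error alone, equal 3.18 to 5.22 in a MEF library and 2.75 to 3.0 at day 3. The MEF libraries were close to each other (chi-square per gene 3.16 to 3.24). Day 3 replicate 2 stood apart from the other 2 day 3 libraries (chi-square per gene 47.6 and 38, against 8.52 between replicates 1 and 3) and held 3.23% of its counts in 23 mitochondrial genes, against 0.961% and 1.18% in replicates 1 and 3 and 1.6 to 1.91% in the MEFs. Differentially expressed genes (DEGs) had an adjusted p (false discovery rate, FDR) under 0.05 and a log2 fold change beyond 1 in either direction, from DESeq2's Wald test with Benjamini-Hochberg adjustment, and ± after a log2 fold change is its standard error (SE). No label says that replicates were separate cultures, so the p-values measure the spread between libraries, which may be technical.

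The response was broad, with more falls than rises. Of 21436 genes tested, 4178 (19.5%) rose and 5451 (25.4%) fell, 9629 DEGs (44.9%) in all. The shares of 19.5% and 25.4% are the background for every count of list members below. The median log2 fold change was 1.97 among risen genes, -2.50 among fallen genes and -0.0054 among all genes tested. Changes of over 5 on the log2 scale were seen in 565 risen and 720 fallen genes, and beyond 8 in 111 risen and 55 fallen genes. Among DEGs 9464 (98.3%) had groups that did not overlap, against 76.1% of all 21442 genes (36.2% higher at day 3 and 39.8% lower). By FDR alone 70.9% of the genes tested differed. Without day 3 replicate 2 there were 9411 DEGs, of which 4161 rose and 5250 fell. The margin of falls over rises depended on the scaling of libraries. In place of DESeq2 size factors, TMM scaling gave 4522 risen and 5155 fallen genes, and total counts gave 4579 and 5090. Falls outnumbered rises among protein-coding genes (29.1% of 15894 fell and 20.5% rose), whereas among 653 long intergenic non-coding RNAs 27.4% rose and 20.7% fell. At least 1 exon of 2713 DEGs (28.2%) lies opposite an exon of another gene, and since the strand setting of the counting is not given in the sources used here, reads of the pair cannot be told apart in those.

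The 4 reprogramming factors were the check of the labels. Together they took 0.00750, 0.00695 and 0.00705% of the counts in the 3 MEF libraries and 0.431, 0.415 and 0.449% at day 3. Pou5f1 had 33, 51.5 and 26.5 in the MEFs and 39976, 42926 and 43983 at day 3 (log2 fold change 10.20 ± 0.19). Sox2 went from 155, 158 and 192 to 23821, 23506 and 24746 (log2 fold change 7.15 ± 0.18). Every day 3 library was above every MEF library for all 4 factors. Klf4 and Myc, which MEFs already expressed at 1407, 1301 and 1301 and 913, 777 and 836 normalised read counts, rose by 4.77 ± 0.18 and 5.19 ± 0.19 on the log2 scale. Reads from the transgene and from the endogenous gene are counted together here.

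The fibroblast label of the MEF libraries held for its defining markers, and most of these markers were low at day 3. Of 18 fibroblast surface and sorting markers tested, 15 fell and none rose (median log2 fold change -3.15). Thy1, a surface protein of fibroblasts, had 19029.9, 18710.0 and 19291 in the MEFs and 507, 297 and 361 at day 3 (log2 fold change -5.61 ± 0.28, FDR 9.61e-88), 48.9-fold lower with no overlap between groups. Icam1, an adhesion molecule, fell from 4073, 4386 and 4245 to 472, 525 and 602 (log2 fold change -2.99 ± 0.23, FDR 1.27e-38). Cd44, the hyaluronan receptor that is followed together with Icam1 in sorting of reprogramming cells, had 9138, 8267 and 8656 in the MEFs and 8705, 8389.5 and 8924 at day 3 (log2 fold change -0.0023 ± 0.23, FDR 1), and its groups overlapped. Fap and Cd34, both markers of stromal cells, fell, with log2 fold changes of -6.27 and -5.70. Pdgfra, a growth factor receptor of mesenchyme, had 12835, 12841 and 12474 in the MEFs and 85.3, 56 and 64.9 at day 3, 185-fold lower without overlap. DESeq2 gave Pdgfra no p because of its outlier rule, and edgeR's quasi-likelihood test gave a log2 fold change of -7.43, FDR 7.31e-13. In bulk RNA a lower level can come from fewer cells with the gene or from less RNA per cell, and these cannot be told apart.

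**Figure D1:**
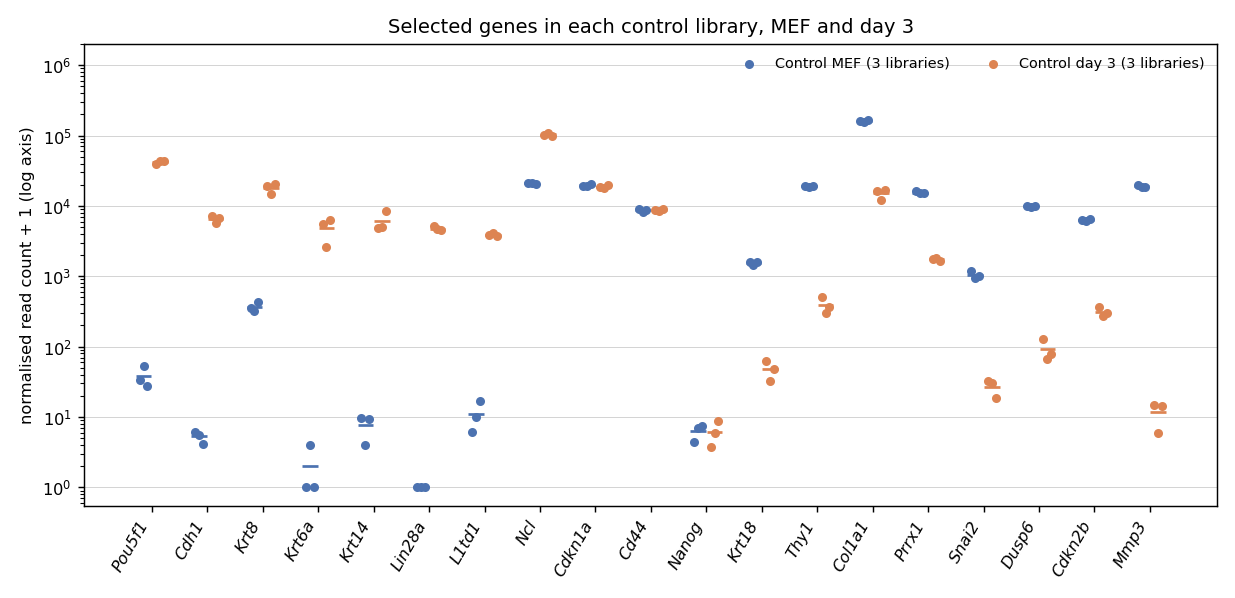
Normalised read counts plus 1 (log axis) of 19 genes in each of the 3 control MEF libraries (blue) and 3 control day 3 libraries (orange), with horizontal bars at the group means. Pou5f1, Cdh1, Krt8, Krt6a, Krt14, Lin28a, L1td1 and Ncl are higher in all day 3 libraries, Cdkn1a, Cd44 and Nanog are at like levels, and the genes from Krt18 to Mmp3 are lower in all day 3 libraries.

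Mesenchymal transcription factors fell as a group. Of 30 measured, 23 fell and none rose, with a median log2 fold change of -2.83. Snai2 (Slug), a repressor of epithelial cadherin, had 1179, 939 and 1019.9 in the MEFs and 31.2, 29 and 17.4 at day 3 (log2 fold change -5.33 ± 0.25, FDR 7.53e-102). Its relatives in this role, Snai1 and Zeb1, fell, with log2 fold changes of -4.08 and -3.75, and neither group pair overlapped. The limb mesenchyme factor Prrx1 fell from 16319, 15114 and 15039 to 1779, 1801 and 1669 (log2 fold change -3.15 ± 0.14, FDR 5.62e-105). Meox1, a factor of the somites, was at 0 in all day 3 libraries from 160.0, 211 and 184, at least 64-fold lower against a floor of 3 reads per library. Osr2, a factor of limb and kidney mesenchyme, fell to 6.42, 5.0 and 4.85 from 553, 542 and 565. The 7 members that did not pass included Runx1 (1320.0, 1259 and 1197 against 916, 836 and 848, FDR 0.281), and Tbx18, Foxc2, Foxd1, Meox2, Pparg and Cebpa, with log2 fold changes between -0.75 and -0.36. Runx1 was lower in every day 3 library, and its FDR rests on the spread in all 36 libraries.

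Genes of the extracellular matrix fell from high levels but were still read at day 3. Of 38 collagens and matrix genes tested, 34 fell and none rose (median log2 fold change -3.18), and the list went from 3.34 to 3.42% of the counts in the MEFs to 0.375 to 0.478% at day 3. Col1a1, a chain of type I collagen, had 159248, 158060.0 and 165480.0 in the MEFs and 16393, 12199 and 16904 at day 3 (log2 fold change -3.41 ± 0.41, FDR 2.98e-16). The chains Col1a2 and Col3a1 fell, with log2 fold changes of -3.99 ± 0.47 and -4.69 ± 0.47. Lum, a proteoglycan that spaces collagen fibrils, dropped to 22, 1.0 and 4.85 from 1525, 1354 and 1354 (log2 fold change -7.24 ± 0.89, FDR 1.28e-15). Col15a1, of basement membranes, fell from 2807, 2872 and 2928 to 46.8, 54 and 34.9. The 4 tested members that did not pass were Fbn1 (fibrillin), Dcn (decorin), Vcan (versican) and Mfap5. Fbn1 had 24468, 24425 and 24121 in the MEFs and 22098, 23729.5 and 25999 at day 3, with overlap between groups and a log2 fold change of -0.024 ± 0.19, and Dcn had 3233, 3270.0 and 3190.3 in the MEFs and 4992, 3284 and 3649.9 at day 3 (log2 fold change 0.30 ± 0.20, FDR 0.162).

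The list of enzymes that cut the matrix, together with their inhibitors and related genes, gave the largest median fall of the lists. Among 22 matrix proteases and inhibitors, 19 fell and none rose, and the median log2 fold change was -4.74. Mmp3 (stromelysin) had 19717, 18449 and 18731 in the MEFs and 13.8, 5.0 and 13.6 at day 3 (log2 fold change -10.78 ± 0.88, FDR 2.16e-33), 1760.3-fold lower with no overlap. Mmp10, a close relative of Mmp3 in the same chromosome 9 cluster, fell from 1793, 1778 and 1689.6 to 0.92, 3.0 and 4.85 (log2 fold change -9.24 ± 0.68, FDR 6.6e-41). Mmp2 and Mmp9, the gelatinases, fell, with log2 fold changes of -4.24 and -5.51, and Mmp2 was still at 1288, 1195 and 1374 at day 3. The urokinase receptor Plaur, in contrast, had 1170.5, 1094 and 1216 in the MEFs and 2084, 1459 and 1722 at day 3 (log2 fold change 0.60 ± 0.25, FDR 0.0238) and was no DEG. Promoter windows of 250 bases before the start are shown for 3 of the fallen proteases, chosen after their values were seen, because each holds a match to the AP-1 motif TGANTCA (capitals), the site of JUN and FOS proteins. They are RefSeq sequences of GRCm38.p6, read 5′ to 3′ in the direction of the gene. Mmp3 is at chr9:7445572-7445821 (plus strand), Mmp10 at chr9:7502092-7502341 (plus strand) and Mmp13, a collagenase that fell from 549.6, 630.1 and 627 to 13.8, 15 and 10.7, at chr9:7272264-7272513 (plus strand).

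Mmp3: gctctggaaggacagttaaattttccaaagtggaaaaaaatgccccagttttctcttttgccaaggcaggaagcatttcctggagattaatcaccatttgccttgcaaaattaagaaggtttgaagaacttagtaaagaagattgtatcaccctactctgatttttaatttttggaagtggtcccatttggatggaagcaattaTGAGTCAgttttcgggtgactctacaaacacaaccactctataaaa
Mmp10: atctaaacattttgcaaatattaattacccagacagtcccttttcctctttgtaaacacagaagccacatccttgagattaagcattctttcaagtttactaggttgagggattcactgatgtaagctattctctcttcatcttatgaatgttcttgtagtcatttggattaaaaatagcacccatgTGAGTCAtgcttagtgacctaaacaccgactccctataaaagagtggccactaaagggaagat
Mmp13: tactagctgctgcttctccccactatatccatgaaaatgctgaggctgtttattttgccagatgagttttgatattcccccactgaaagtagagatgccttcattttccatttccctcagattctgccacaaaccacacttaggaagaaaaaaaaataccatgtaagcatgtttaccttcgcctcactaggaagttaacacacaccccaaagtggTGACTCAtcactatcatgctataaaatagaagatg

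The matches began 46, 63 and 35 bases before the starts of Mmp3, Mmp10 and Mmp13. In the protease list 4 of 16 windows held the motif, against 5.06% of all 16537 windows of tested genes, searched on both strands. The KLF motif CACACCC was also in 4 of 16 protease windows, the Mmp13 window shown among them, against 7.76% of all windows. A match is a stretch of letters and says nothing of binding. Transcripts of AP-1 members changed unevenly. Of 19 AP-1 and immediate early genes 9 fell and 3 rose (median log2 fold change -0.49). Among all genes tested 25.4% fell and 19.5% rose. Jun had 6491, 6139 and 6225 in the MEFs and 2093, 1437 and 1891 at day 3 (log2 fold change -1.80 ± 0.23, FDR 3.58e-14). Junb, at -1.02 ± 0.16, passed the fold threshold by a margin that was lost with TMM or total-count scaling and without MEF replicate 1 (-0.98) or day 3 replicate 2 (-0.94), and Jund did not pass (log2 fold change -0.066 ± 0.19, FDR 0.788). Egr3, an early growth response factor, and Klf6, a Krüppel-like factor, fell, with log2 fold changes of -2.97 and -3.06, while Atf3, a stress-induced member, rose from 74.8, 93.9 and 74.3 to 366, 349 and 342, and Mafk and Klf10 rose by 1.93 ± 0.15 and 1.48 ± 0.16. Egr1 differed among the day 3 libraries, at 3594, 649 and 1119, and was lowest in replicate 2.

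Contractile genes, whose products form stress fibres, fell as well. Of 25 contractile and actin genes 18 fell and none rose (median log2 fold change -2.01). Smooth muscle actin Acta2 had 11299, 10374 and 12098 in the MEFs and 1674, 1170.1 and 1560.3 at day 3 (log2 fold change -2.94 ± 0.52, FDR 4.79e-08), and its partner Tagln fell, with a log2 fold change of -3.08 ± 0.42. The intermediate filament gene Des (desmin) went from 5847, 5760.1 and 6316 to 131, 124 and 322, and Mylk, which encodes myosin light chain kinase, from 1247, 1295 and 1250.2 to 56.8, 44 and 36.8. Srf and Mrtfa, which encode the transcription factor and coactivator that act on these genes, had log2 fold changes of -0.80 ± 0.12 and -0.63 ± 0.10, inside the fold threshold though with FDRs of 2.08e-11 and 2.02e-10. The promoter of the calponin gene Cnn2 (11127, 10031 and 11151 in the MEFs and 770.2, 590.0 and 722 at day 3), at chr10:79988350-79988599 (plus strand, RefSeq, GRCm38.p6), is shown because it holds a CArG box, the site of SRF, in capitals.

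Cnn2: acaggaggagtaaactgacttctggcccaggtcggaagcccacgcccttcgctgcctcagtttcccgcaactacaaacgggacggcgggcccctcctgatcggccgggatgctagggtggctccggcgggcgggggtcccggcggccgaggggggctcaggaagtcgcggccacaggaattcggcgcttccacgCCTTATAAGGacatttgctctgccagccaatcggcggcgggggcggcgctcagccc

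The box began 56 bases before the start. CArG boxes were found in 5 of 24 windows of the list (20.8%), against 1.19% of all windows.

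Epithelial genes rose over the same interval. Of 35 epithelial junction genes 29 rose and 2 fell, with a median log2 fold change of 4.36. Cdh1 (E-cadherin), the adhesion protein of epithelia, had 5.22, 4.54 and 3.18 in the MEFs and 7107, 5744 and 6709 at day 3 (log2 fold change 10.62 ± 0.53, FDR 5.23e-89), with no overlap, and each MEF value stands for 3 reads. Epcam, another epithelial adhesion gene, rose from 29.6, 21.2 and 35 to 941, 627 and 622 (log2 fold change 4.66 ± 0.35, FDR 2.74e-40), and the tight junction gene Ocln from 10.4, 19.7 and 10.6 to 91.7, 76 and 64.9. Ovol1, a repressor of mesenchymal genes, was at 0 in the MEF libraries and at 827, 681 and 621 at day 3, at least 164-fold higher. Some junction genes were already read in MEFs, as Dsp (desmoplakin, of desmosomes) rose to 46162, 44144 and 53397 from 717, 710.4 and 739 and Itgb4, of hemidesmosomes, from 723, 794 and 783 to 10178, 8115 and 9423. Cdh3 (P-cadherin) went the other way, from 1937, 2099 and 2293 to 222, 161 and 180.3 (log2 fold change -3.49 ± 0.27, FDR 1.86e-38), as did Cldn6 (-1.74 ± 0.67), whose call was lost without day 3 replicate 2 and with edgeR. Jup, Rab25, Spint1 and Prss8 did not pass. Grhl2, a regulator of epithelial adhesion genes, rose from 0 in the MEFs to 13.8, 8.0 and 9.69 at day 3, at least 2.43-fold (FDR 3.56e-05).

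Keratins moved in both directions. Of 22 keratins and cornified envelope genes 13 rose and 4 fell (median log2 fold change 2.65). Krt17, a keratin of stressed and follicular epidermis, was at 0 in the MEFs and at 2580.1, 1885 and 3883 at day 3, at least 645-fold higher (FDR 2.31e-26). Krt6a had 0, 3.03 and 0 in the MEFs and 5578, 2639 and 6348 at day 3, a read ratio of 5325 (95% counting interval 1474 to 43978), and replicate 2 was the lowest of the day 3 libraries. Krt14, of the basal layer of skin, rose from 8.7, 3.03 and 8.49 to 4788, 4952 and 8570.3. The pair Krt8 and Krt18, which join in the filaments of simple epithelia, moved in opposite directions. Krt8 had 351, 323 and 429 in the MEFs and 19112, 14919 and 20168 at day 3 (log2 fold change 5.62 ± 0.44, FDR 4.3e-37), and Krt18 had 1604, 1456 and 1614 in the MEFs and 61.4, 32 and 46.5 at day 3 (log2 fold change -5.06 ± 0.53, FDR 3.46e-21), with no overlap in either. Krt15, Krt19 and the epithelial factor gene Klf5 fell too, with log2 fold changes of -2.69, -2.40 and -1.43. Krt6a is nearly identical in sequence to its neighbour Krt6b (2590.2, 1144 and 2934 at day 3), as is Dsg1a to Dsg1b, so reads may be split between copies.

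A few epidermal genes outside the lists were picked because they rose, and are given only as values. Slurp1, a secreted protein of the epidermis, had no reads in the MEFs and 509, 489 and 487 at day 3, at least 115-fold higher. The desmosomal cadherin Dsg1b and the kallikrein Klk14, also at 0 in the MEFs, had 860.0, 528 and 867 and 479.5, 446 and 428. Pkp1, a plakophilin of desmosomes, rose from 12.2, 3.03 and 0 to 3673, 3620.2 and 4098 (log2 fold change 9.84 ± 0.49, FDR 6.99e-89). Promoter sequence is shown for Sprr1b, a cornified envelope gene that had 1.74, 0 and 2.12 in the MEFs and 136, 87 and 166 at day 3, because it holds an AP-1 match, in capitals. The window is at chr3:92438780-92439029 (minus strand, RefSeq, GRCm38.p6) and the match began 111 bases before the start.

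Sprr1b: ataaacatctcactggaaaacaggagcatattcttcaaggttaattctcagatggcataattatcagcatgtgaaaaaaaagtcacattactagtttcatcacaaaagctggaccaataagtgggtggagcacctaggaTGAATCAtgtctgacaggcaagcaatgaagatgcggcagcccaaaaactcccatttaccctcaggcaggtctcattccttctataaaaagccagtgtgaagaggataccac

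AP-1 matches were in 3 of 12 keratin and cornified envelope windows. In the list as a whole the share of counts rose from 0.0396 to 0.0422% in the MEFs to 0.164 to 0.245% at day 3, and was lowest in replicate 2.

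**Figure D2:**
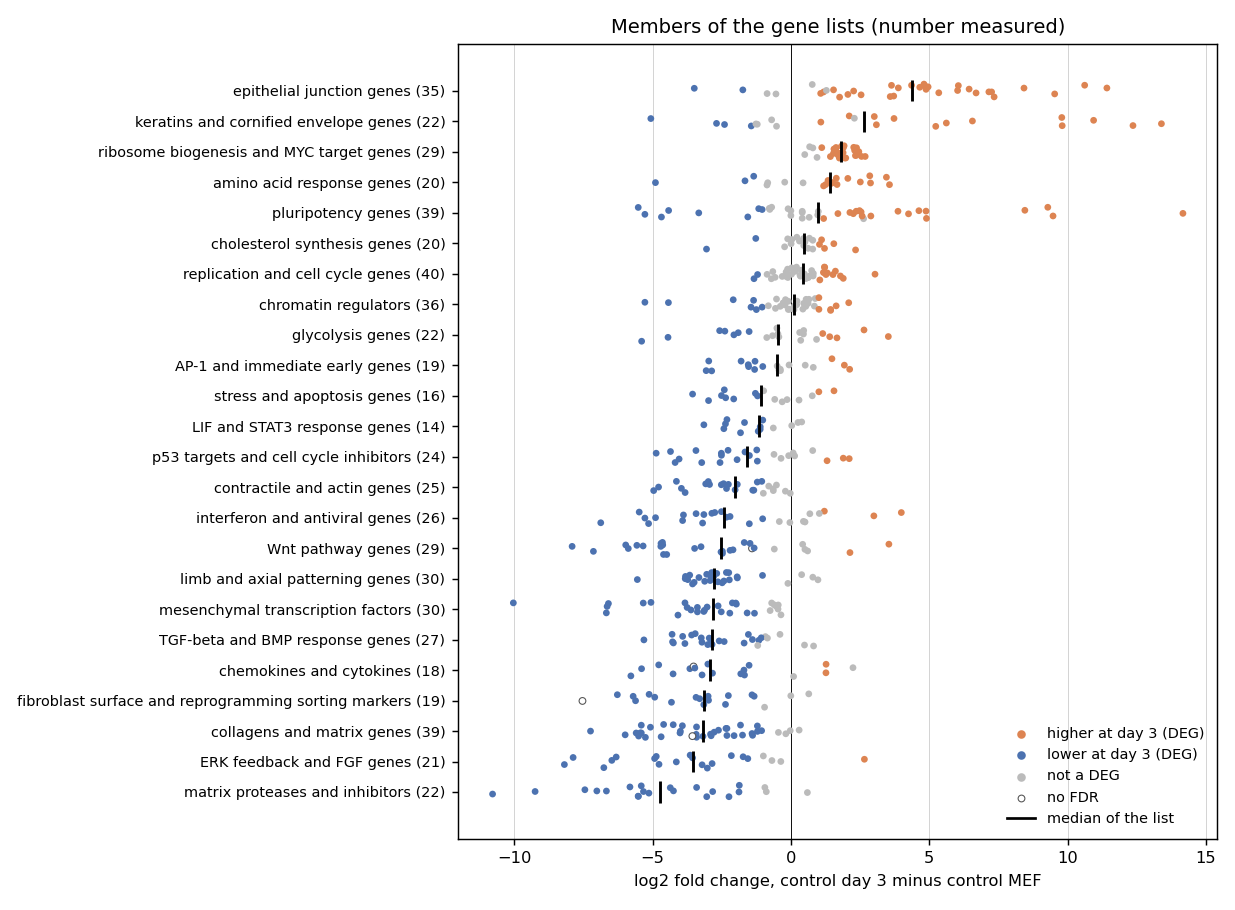
Log2 fold change of control day 3 minus control MEF for each measured member of 24 gene lists (number measured in brackets), ordered by list median (black bar). Orange points rose, blue points fell, grey points were no DEG and open points had no FDR, and list medians run from 4.36 for epithelial junction genes to -4.74 for matrix proteases and inhibitors.

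Pluripotency genes held members that rose, fell or did not pass. Of 39 measured, 18 rose, 8 fell and 13 did not pass, with a median log2 fold change of 0.99. Of all genes tested 19.5% rose and 25.4% fell, so rises were more frequent in the list and falls were not. Lin28a, an RNA-binding protein that blocks let-7 microRNA maturation, was at 0 in all MEF libraries and at 5128, 4706 and 4474 at day 3, at least 1105-fold higher (FDR 2.91e-32). Sall4, a zinc finger partner of Oct4, had 1 read over the MEF libraries and 438, 303 and 334 at day 3, a read ratio of 785 (95% counting interval 141 to 31042). L1td1, an RNA-binding protein of ESCs, rose from 5.22, 9.09 and 15.9 to 3815, 4055 and 3699. Nanog, by contrast, had 3.48, 6.06 and 6.37 in the MEFs and 2.75, 5.0 and 7.75 at day 3 with overlap between groups (log2 fold change -0.10 ± 0.57, FDR 0.899). Values near or below the floor of 3 reads were also seen for Dppa2, Dppa3, Prdm14, Otx2 and Dppa5a, each with no more than 1 read in any of the 6 libraries. Esrrb rose by 2.36 ± 0.32 to 69.7, 45 and 67.8. The members that fell included genes that ESCs also use, such as Mycn (957, 1028 and 1036 to 26.6, 13 and 26.2), Klf2 (367, 261 and 359 to 8.25, 16 and 14.5), Etv5 (3936, 3880.4 and 3865 to 221, 176 and 149) and Tbx3 (-1.56 on the log2 scale). Dnmt3l, the cofactor of new DNA methylation, was at 0 at day 3 from 1.74, 12.1 and 6.37, at least 2.34-fold lower. Alpl, the alkaline phosphatase used as an early stain of reprogramming, rose from 34.8, 60.6 and 58.4 to 209, 317 and 375.

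Ribosome biogenesis genes rose together. Of 29 genes for ribosome production and other targets of Myc, 25 rose and none fell, and all 29 had an FDR under 0.05 with a rise (median log2 fold change 1.80). Ncl (nucleolin), the major nucleolar protein, had 21279, 21183 and 20506 in the MEFs and 102236, 109467 and 99367 at day 3 (log2 fold change 2.30 ± 0.061). Npm1 (nucleophosmin) and Nop56, a core protein of ribosomal RNA modification, rose by 1.76 ± 0.049 and 1.90 ± 0.072 on the log2 scale. Rrp9, which processes ribosomal RNA, had the largest rise of the list (866, 901 and 886 to 5609.5, 5464 and 6003), followed by the RNA helicase Ddx21 (2.55 ± 0.081). Log2 fold changes ran from 0.50 for Utp20 to 2.69 for Rrp9, and the list went from 0.379 to 0.381% to 1.46 to 1.5% of the counts. The promoter of Nop2, a ribosomal RNA methyltransferase gene that rose from 2188, 2351 and 2299 to 7474, 7737 and 7826, at chr6:125131633-125131882 (plus strand, RefSeq, GRCm38.p6), is shown because it holds the E-box CACGTG (capitals), the site of MYC.

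Nop2: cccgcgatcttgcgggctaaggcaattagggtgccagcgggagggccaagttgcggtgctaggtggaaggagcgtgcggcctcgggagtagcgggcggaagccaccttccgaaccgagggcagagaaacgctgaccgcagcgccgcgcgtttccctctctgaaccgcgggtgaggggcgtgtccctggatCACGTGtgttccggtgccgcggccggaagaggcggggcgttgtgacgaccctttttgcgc

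The E-box began 60 bases before the start. Across all tested genes 7.73% of windows held CACGTG, with 8.71% among risen genes, 6.35% among fallen genes and 8.14% among genes that were no DEG. In the ribosome list 3 of 26 windows, from 2 genes, held the E-box. The SOX motif ACAAAGG was in 4 of 26 windows of the ribosome list, against 4.23% of all windows. AP-1 matches were in 5.17% of risen and 6.31% of fallen windows. No test was run on these shares.

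Of 40 replication and cell cycle genes 12 rose, 2 fell and 26 did not pass, against 19.5% that rose and 25.4% that fell among all genes tested (median log2 fold change 0.43). Mybl2, a transcription factor of late G1, rose most, from 499, 394 and 409 to 3566, 3812 and 3296 (log2 fold change 3.04 ± 0.13, FDR 3.06e-119). The replication helicase subunit Mcm6 rose by 1.89 ± 0.17, whereas Mcm2 (2477, 2464 and 2487 against 2429.8, 2772 and 2362) and Mcm4 had log2 fold changes of 0.026 ± 0.10 and 0.029 ± 0.083, with overlap between groups. Ccne1 (cyclin E1) and Ccnd3 (cyclin D3) fell, with log2 fold changes of -1.33 ± 0.14 and -1.20 ± 0.11. Mki67, a marker of cycling cells, had 5087, 5128 and 4623 in the MEFs and 4390.1, 4752 and 4404 at day 3.

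Of 24 p53 targets and cell cycle inhibitors 15 fell and 3 rose (median log2 fold change -1.58). Among all genes tested 25.4% fell and 19.5% rose. Cdkn2b (p15) had 6395, 6159.9 and 6495 in the MEFs and 369, 269 and 297 at day 3 (log2 fold change -4.35 ± 0.25, FDR 7.84e-67) and Cdkn2a, the Ink4a/Arf gene, 7984, 7429 and 7860.0 in the MEFs and 1409, 1265 and 1273 at day 3 (log2 fold change -2.56 ± 0.18, FDR 3.89e-47). Cdkn1a (p21), which arrests cells on p53 activation, was at 19463, 19392 and 20147 in the MEFs and 18494, 17720.1 and 19623 at day 3, overlapping, with a log2 fold change of -0.08 ± 0.14. Trp53 itself was lower in every day 3 library (log2 fold change -0.61 ± 0.083, FDR 7.77e-13) but within the fold threshold. Igfbp3, a growth factor binding protein, fell from 14366, 13762 and 14006 to 697, 362 and 384, and the p53 target Sesn2 had a log2 fold change of -1.66 ± 0.13. Gadd45b and Perp rose by 1.89 ± 0.37 and 2.11 ± 0.37, and Perp is also a desmosome gene. Zfp266, the zinc finger gene whose loss the series studies, was at 2924, 3096 and 2828 in the MEFs and 1417, 1598 and 1579.7 at day 3, lower in every library but with a log2 fold change of -0.95 ± 0.076 no DEG. Among 17 reprogramming roadblock genes, a part of those the study names, 4 fell and 2 rose, close to or below the shares of all genes tested (25.4% and 19.5%). The risen genes were Usp28, from 522, 571 and 516 to 2049, 1814 and 2005, and Dot1l, whose call at 1.01 ± 0.11 was lost without MEF replicate 3 or day 3 replicate 3.

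Transcripts of FGF and ERK signalling were mostly lower. Of 21 ERK feedback and FGF genes 17 fell and 1 rose (median log2 fold change -3.55). Dusp6, the phosphatase that dampens ERK and is induced by it, had 9917, 9784 and 9969.9 in the MEFs and 129, 66 and 78.5 at day 3 (log2 fold change -6.76 ± 0.41, FDR 5.24e-59), 108-fold lower. Its relatives Dusp4 and Dusp5 fell, with log2 fold changes of -3.21 ± 0.31 and -1.72 ± 0.31. Among ligands, Areg (amphiregulin) went from 1553, 1465 and 1441 to 9.17, 4.0 and 5.81, Fgf7 from 995, 899.7 and 986 to 20.2, 13 and 2.91 and Fgf10 from 473, 480.1 and 483 to 9.17, 3.0 and 3.88. Il1rl1, the receptor of interleukin 33 and a gene induced by growth signals, had the largest fall of the list (log2 fold change -8.18 ± 0.66, FDR 4.46e-34). Fgfr3 was the member that rose, from 17.4, 33.3 and 43.5 to 169.6, 177 and 264. MEF medium held FGF2 and day 3 medium did not, and the part of this change was not tested.

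Most genes of the TGF-beta and BMP list and of the Wnt list fell. Of 27 TGF-beta and BMP response genes 21 fell and none rose (median log2 fold change -2.85). Among ligands, Bmp4 had 530.4, 560.4 and 616 in the MEFs and 34.8, 26 and 26.2 at day 3 (log2 fold change -4.29 ± 0.39, FDR 1.8e-27), and Tgfb1, Tgfb2 and Tgfb3 had log2 fold changes of -3.91, -3.0 and -2.85. The receptor gene Tgfbr2 went from 13068, 12756 and 12730.3 to 1587, 1207 and 1292. Among targets, Id1 and Id3, inhibitors of differentiation factors, fell, with log2 fold changes of -1.15 ± 0.17 and -3.21 ± 0.19, while Id2 was 0.49 ± 0.12 and no DEG. Ltbp2, a matrix protein of the latent TGF-beta binding family, fell most, from 5334, 5341 and 5985 to 207, 95 and 117. Of 28 Wnt pathway genes tested 22 fell and 2 rose (median log2 fold change -2.52). The ligand Wnt5a went from 6600.1, 6699 and 6528 to 161, 89 and 87.2, and the secreted antagonists Sfrp2 and Frzb from 3264, 3334 and 3249 and 4358, 4188 and 4353 to 25.7, 18 and 26.2 and 18.3, 20 and 15.5. The risen members were the antagonist Wif1 (2.14 ± 0.22) and the transcription factor Lef1, at 335, 437 and 445 from 36.5, 36.4 and 31.8 (log2 fold change 3.54 ± 0.47, FDR 1.39e-13). Wnt2 and Wnt4 fell, with log2 fold changes of -2.52 ± 0.36 and -2.20 ± 0.20.

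LIF was present only in the day 3 medium. Of 14 LIF and STAT3 response genes measured 10 fell and none passed as higher (median log2 fold change -1.14). Socs3, the feedback inhibitor that STAT3 induces, had 4814, 4938 and 4828 in the MEFs and 2529.7, 3460.2 and 3402 at day 3 (log2 fold change -0.63 ± 0.27, FDR 0.0272), lower in each day 3 library but within the threshold. Pim1 and Pim3, kinase genes induced by STAT3, were higher in each day 3 library, within the threshold, with log2 fold changes of 0.26 ± 0.17 (FDR 0.182) and 0.39 ± 0.16 (FDR 0.021). Stat3 fell (-1.11 ± 0.095), and Bcl3 passed at -1.11 ± 0.19 but not without day 3 replicate 1 (-0.98). The receptor genes Lifr, Il6st (gp130) and Osmr fell, the last from 7157, 7379 and 7253 to 1409, 1269 and 1388. Cebpd, a STAT3 target, fell to 149, 175 and 156 from 1424, 1360.1 and 1461.

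Most of the immune genes listed were lower at day 3. Of 26 interferon and antiviral genes 17 fell and 3 rose (median log2 fold change -2.42). Among all genes tested 25.4% fell and 19.5% rose. The share of counts of the interferon list did not fall, at 0.0357 to 0.0367% in the MEFs and 0.0370 to 0.0382% at day 3. Irf1, a transcription factor of the interferon response, had 555, 615 and 635 in the MEFs and 125, 121 and 114 at day 3 (log2 fold change -2.33 ± 0.23, FDR 6.99e-24), with no overlap, and Stat2, a signal transducer of type I interferons, fell, with a log2 fold change of -2.20 ± 0.18. Ifi27 went from 475, 494 and 572 to 14.7, 13 and 6.78, and Oasl2 had a read ratio of 123 (95% counting interval 21.6 to 4927) in favour of the MEFs. The RNA sensor enzyme gene Oas1a rose from 5.22, 6.06 and 10.6 to 141, 112 and 111 and the interferon-induced Xaf1 from 148, 133 and 118 to 900.4, 1037 and 1242. Of 17 chemokines and cytokines tested 13 fell and 2 rose (median log2 fold change -2.92). Cxcl12, the chemokine that stroma uses to hold stem cells, had 6298, 6564 and 6035 in the MEFs and 152, 102 and 89.2 at day 3 (log2 fold change -5.78 ± 0.54, FDR 5.31e-26), Cx3cl1 went from 1583, 1468 and 1597 to 55, 27 and 28.1, and Ccl2 and Ccl9 fell, with log2 fold changes of -3.65 ± 0.30 and -4.26 ± 0.83. The risen members were Ccl7 (1.27 ± 0.15) and Cxcl16 (1.27 ± 0.17).

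Amino acid genes mostly rose, whereas the other metabolic lists held members that rose, fell or did not pass. Of 20 amino acid response genes 13 rose and 3 fell (median log2 fold change 1.40). Trib3, a pseudokinase induced by ATF4, had 123, 139 and 162 in the MEFs and 1462, 1738 and 1864 at day 3 (log2 fold change 3.56 ± 0.20, FDR 1.27e-71), and the arginine transporter gene Slc7a1 rose from 1511, 1462 and 1517 to 16168, 16981 and 16007. Asns (asparagine synthetase) rose by 2.06 ± 0.15, while the transcripts of the factors themselves, Atf4 and Atf5, had log2 fold changes of 0.44 ± 0.16 and -0.86 ± 0.18 and were no DEGs. Sesn2 and Vldlr, also in the list, fell, with log2 fold changes of -1.66 ± 0.13 and -4.89 ± 0.25.

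Of 22 glycolysis genes 5 rose, 7 fell and 10 did not pass (median log2 fold change -0.45). These shares were near those of all genes tested, of which 19.5% rose and 25.4% fell. Among phosphofructokinases Pfkp rose from 962, 997 and 1021 to 10426, 11756 and 12074 (log2 fold change 3.52 ± 0.10, FDR 1.88e-263), Pfkm fell from 1607, 1560.0 and 1687 to 488, 415 and 396 and Pfkl was -0.43 ± 0.11. The glucose transporter Slc2a1 fell, with a log2 fold change of -2.57 ± 0.17 and Slc2a3 rose by 1.15 ± 0.12. Eno3, an enolase, rose by 2.64 ± 0.26. Ldhb, one lactate dehydrogenase, went from 4096, 4623 and 4525 to 137, 62 and 116 (log2 fold change -5.39 ± 0.32, FDR 7.01e-61), and Ldha was 24411, 23617 and 25641 against 42888, 48749 and 48551 (0.93 ± 0.085), inside the threshold. Hk1 was -0.87 ± 0.16, and the aldolase Aldoc fell, with a log2 fold change of -4.44 ± 0.52.

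In cholesterol synthesis 5 of 20 genes rose and 2 fell (median log2 fold change 0.49), against 19.5% and 25.4% of all genes tested. Idi1, an isomerase of isoprenoid synthesis, had 1711, 1855 and 1766 in the MEFs and 5893, 5028 and 4716 at day 3 (log2 fold change 1.55 ± 0.27, FDR 2.77e-08). The kinase gene Mvk fell, with a log2 fold change of -1.27 ± 0.16, and Hmgcs1 and Sqle did not pass. Of 16 stress and apoptosis genes 8 fell and 2 rose (median log2 fold change -1.09). The chaperone Hsp90aa1 rose from 27277, 26715 and 27073 to 77414, 82722 and 78639, and the survival gene Mcl1 passed at 1.01 ± 0.084, but not without MEF replicate 2 or day 3 replicate 2 (0.99 in both). The heat shock gene Hspa1a fell, with a log2 fold change of -1.28 ± 0.19, Hspa1b was -0.98 ± 0.18, and Nqo1, of the oxidative stress response, and Bcl2l11 (Bim) fell, with log2 fold changes of -3.55 ± 0.33 and -2.97 ± 0.12.

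Most positional identity genes fell. Of 30 limb and axial patterning genes 26 fell and none rose (median log2 fold change -2.79). Hoxa5 had 628, 603 and 675 in the MEFs and 77.9, 95 and 103 at day 3 (log2 fold change -2.79 ± 0.26, FDR 2.47e-26), Hoxa10 fell, with a log2 fold change of -2.42 ± 0.16, and Msx1, of the distal limb, fell to 12.8, 4.0 and 6.78 from 377, 359 and 382. Hoxa9, at 304, 303 and 262 in the MEFs, was higher in every day 3 library at 529, 565 and 616 and lay just inside the fold threshold (log2 fold change 0.98 ± 0.23, FDR 4.48e-05), past it with TMM (1.07) or total-count scaling (1.08). Of 36 chromatin regulators 6 rose and 7 fell, shares below the 19.5% and 25.4% of all genes tested (median log2 fold change 0.12). The new-methylation enzyme Dnmt3b rose from 73, 56 and 83.8 to 359, 264 and 289.8 (log2 fold change 2.09 ± 0.27, FDR 2.57e-14), while Dnmt1 and Dnmt3a were 0.13 ± 0.14 and 0.85 ± 0.17 and no DEGs. Chaf1b, of the histone chaperone CAF-1, rose by 1.64 ± 0.11, and Phf19, a Polycomb accessory subunit, fell from 167, 242 and 230.3 to 7.34, 9.0 and 13.6.

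Markers of other cell types were checked because MEF cultures can hold them. For comparison, 19.5% of all genes tested rose and 25.4% fell. The 12 macrophage markers measured took 0.00218 to 0.00256% of the counts in the MEFs and 0.000428 to 0.000975% at day 3, 4 fell and none rose, and the defining marker Ptprc was at 1.74, 3.03 and 8.49 and 11.9, 7.0 and 4.85. Adgre1 had 22.6, 16.7 and 12.7 in the MEFs and 1.83, 14 and 0 at day 3 and was no DEG, Cd14 fell (-4.18 ± 0.27), and Csf1r passed at -1.53 ± 0.64 but not without MEF replicate 1 or 3 or day 3 replicate 3. The 13 endothelial markers took 0.00484 to 0.00512% of the counts in the MEFs and 0.00815 to 0.00998% at day 3. Of these 4 fell, among them Cdh5 (VE-cadherin, 31.3, 47 and 32.9 to 0.92, 0 and 0) and Emcn (at 0 at day 3 from 48.7, 45.4 and 42.5, a call lost without MEF replicate 1 or 2), and 3 rose, namely Tek (1.30 ± 0.29), Flt1 (1.21 ± 0.17) and Tie1, with a read ratio of 8.72 (95% counting interval 2.17 to 75.9), while Kdr did not pass. Of 7 skeletal muscle markers measured (0.0178 to 0.0191% of the counts in the MEFs and 0.000519 to 0.00121% at day 3) 4 fell and Myh3 passed as higher, a call lost without MEF replicate 1 or 3 or day 3 replicate 1, and the defining factors Myod1, Myog, Myf5 and Pax7 were not analysed here. The muscle list summed to 5939, 5916 and 6394 normalised read counts in the MEFs. Nearly all of that was Des, whose values are given above with the contractile genes, so the fall in share is mainly that of Des. Of 12 neural and glial markers (0.0332 to 0.0341% and 0.0404 to 0.0503%) 5 rose and 4 fell. Tubb3, a neuronal tubulin, had 770.4, 719 and 757 in the MEFs and 9429, 9858 and 11553 at day 3 (log2 fold change 3.78 ± 0.22, FDR 2.3e-65), and the glial factor gene Sox10 did not pass. Of 10 adipogenic and chondrogenic markers (0.00642 to 0.00702% and 0.0103 to 0.0144%) 4 rose and 4 fell. Fabp4, of adipocytes, went from 257, 247 and 273 to 0.92, 2.0 and 0.97, and Col2a1, the cartilage collagen, from 193, 185 and 176 to 1205, 1786 and 2427 (log2 fold change 3.29 ± 0.35, FDR 2.55e-20). None of 6 sex-linked genes was a DEG, although Xist (log2 fold change -1.48 ± 0.80, FDR 0.09) became one with the compared libraries alone (-1.38), without day 3 replicate 1 (-2.95) and with a replicate block (-1.84). The part of other cell types in the results above was not tested.

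The largest rises and falls were ranked among DEGs whose groups did not overlap, with at least 500 normalised read counts in the higher group. The largest rises were in genes near or at 0 in the MEFs. Besides Lin28a, Krt17 and Krt6a they were Tdh, Cyp4f39, Aadac, Ptk6 and Hbb-y. Tdh, the threonine dehydrogenase of mouse ESCs, had 0, 1.51 and 0 in the MEFs and 5987, 6311 and 5841 at day 3, a read ratio of 13158 (95% counting interval 2361 to 519738). Cyp4f39, a cytochrome P450 of skin lipid synthesis, had a read ratio of 7599 (95% counting interval 2103 to 62750.3). Aadac, an esterase, Ptk6, a kinase of differentiating epithelia, and Hbb-y, an embryonic haemoglobin chain, were at 0 in the MEFs and at least 265-, 248.6- and 207-fold higher at day 3.

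The largest falls by the same rule were Mmp3, described above, and Mcpt8, Agtr2, Slc14a1, Gdf10, Lrrn1, Rgs5 and Saa3. Mcpt8, a mast cell protease family gene, had 869.6, 849.7 and 919 in the MEFs and 0, 0 and 0.97 at day 3, a read ratio of 2763 (95% counting interval 495 to 109198). Agtr2, an angiotensin receptor of embryonic mesenchyme, went from 12851, 11805 and 12012 to 17.4, 0 and 1.94 (log2 fold change -10.88 ± 1.94, FDR 4.84e-08). The urea transporter Slc14a1 and Gdf10, a BMP family ligand, fell, with log2 fold changes of -10.14 ± 0.52 and -9.98 ± 0.73. Lrrn1, the pericyte marker Rgs5 and the acute phase gene Saa3 fell, with log2 fold changes of -9.61 ± 0.76, -9.39 ± 0.97 and -9.31 ± 0.57. The rule took only DEGs whose groups did not overlap, so day 3 libraries below all MEF libraries were a condition of the choice, not a result.

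The same comparison in cells given a Zfp266 sgRNA used 6 other libraries, treated alike. There 9861 of 21436 genes were DEGs (46.0%). Of the control DEGs 9592 (99.6%) had the same sign in the Zfp266 KO cells, against 91.2% of all genes tested, and 8794 were DEGs in both with 1 sign, which is 91.3% of the control list and 89.2% of the KO list. DEGs with opposite signs numbered 2. Across genes the log2 fold changes had Pearson's r of 0.953 and Spearman's rho of 0.940 (21436 genes, which are not independent replicates). Cdh1 rose by 10.69 and Epcam by 5.09 on the log2 scale in KO cells, Thy1 and Mmp3 had -5.21 and -9.96, and Krt18 again went against Krt8 (-4.67 and 5.76). A test of the difference between the responses (interaction term of DESeq2) passed both thresholds for 9 of 16447 genes tested (0.0547%), and 1129 had an unadjusted p under 0.05. The 3 with the most negative difference were Fgfbp3, Rab30 and B3gnt5 and the 3 with the most positive were Lrmp, Snx20 and Klc3.

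**Figure D3:**
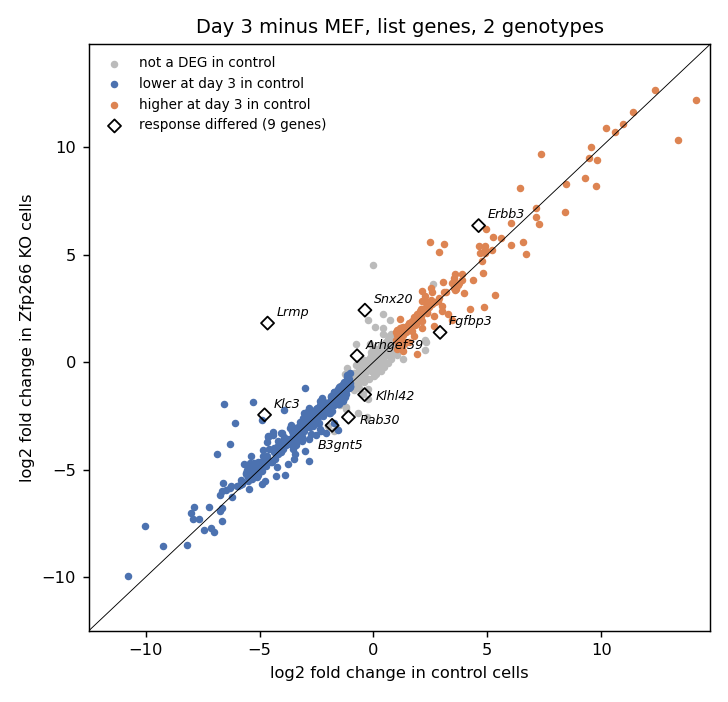
Log2 fold change of day 3 minus MEF in control cells (x) and in Zfp266 KO cells (y) for members of the gene lists, with the line of equal response. Most points lie near the line in both directions, and diamonds mark the 9 genes whose response differed.

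A reference for the direction of change was taken from libraries that the control comparison does not use, ESCs against MEFs of the Zfp266 KO genotype, in which 11867 of 21436 genes were DEGs (55.4%). Of the 4178 genes that rose by day 3 in control cells, 2053 (49.1%) were higher in KO ESCs, 490 (11.7%) were lower in them and 1635 (39.1%) were neither. Of the 5451 fallen genes 3566 (65.4%) were lower in KO ESCs, 481 (8.82%) were higher and 1404 (25.8%) neither. For genes that were no DEG at day 3 the shares were 26.4% higher and 18.3% lower. Seen from the ESC side, 36.3% of the genes higher in KO ESCs had risen by day 3 and 57.3% of those lower in KO ESCs had fallen. Among risen genes, Krt6a was at 0 and Krt14 at 3.37 normalised read counts in KO ESCs, and among fallen genes Mycn was at 5057 and Dusp6 at 1592.

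**Figure D4:**
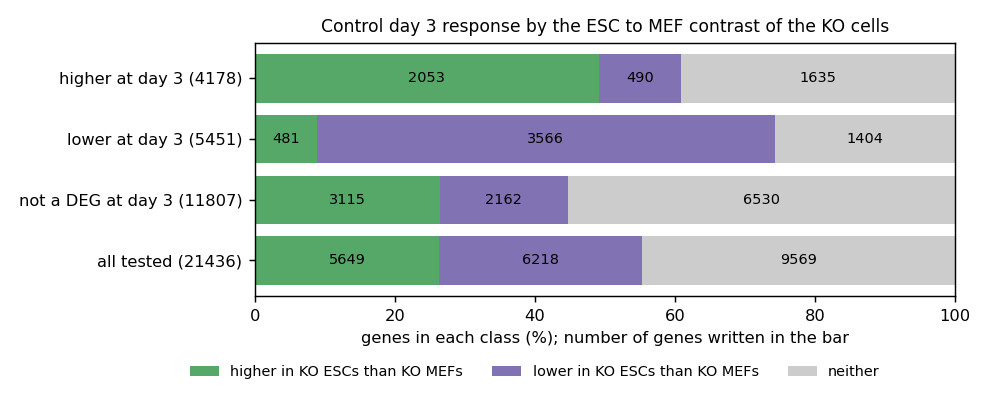
Share of genes (%) that were higher, lower or neither in Zfp266 KO ESCs against KO MEFs, for genes that rose, fell or were no DEG at day 3 in control cells and for all tested genes, with gene numbers in the bars. Risen genes are most often higher in ESCs (2053 of 4178) and fallen genes most often lower (3566 of 5451).

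Later control libraries are given for the course of the same genes, and share the day 3 libraries with the comparison, so they are no independent evidence. The following steps had fewer DEGs, with 1451 (6.90%) between days 3 and 5 (5.01% higher and 1.89% lower at day 5) and 1144 (5.91%) between days 5 and 7 (4.83% higher and 1.08% lower at day 7). Between day 7 and iPSCs there were 9646 (45.0%). Cdh1 was at 6519.9 ± 701 at day 3, 17389.6 ± 726 at day 5 and 8778 ± 639 in ESCs (mean ± SD, n = 3). Krt6a and Ovol1 were at 6779 ± 1555 and 861 ± 126 at day 7 and near 0 or low in iPSCs (1.22 ± 1.42 and 26.7 ± 7.41). Esrrb stood at 60.8 ± 13.7 at day 3, 1951 ± 151 at day 7 and 17767 ± 104 in iPSCs, and Nanog at 5.17 ± 2.51, 649 ± 91.9 and 5563 ± 684. Dusp6 went from 9890.3 ± 95.5 in MEFs to 91.3 ± 33.5 at day 3 and was 2501 ± 938 in iPSCs, and Fbn1, no DEG at day 3, was 14100.2 ± 1555 at day 7 and 85.8 ± 33 in iPSCs.

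**Figure D5:**
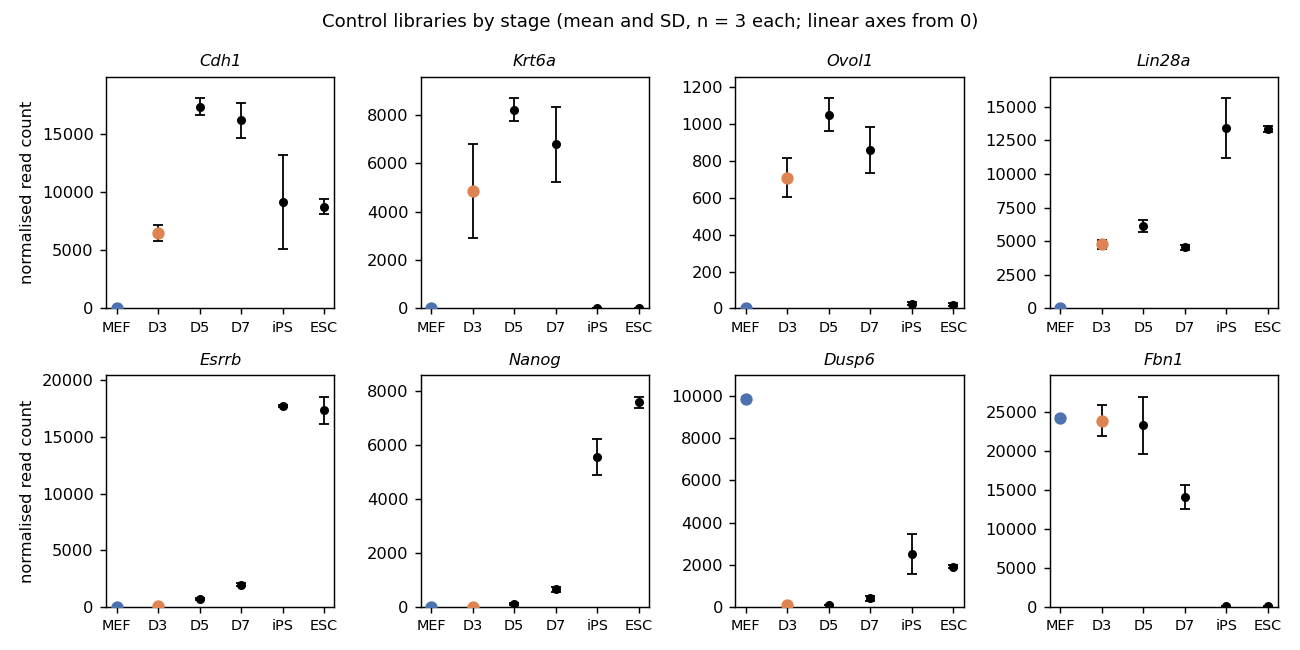
Mean normalised read count (points) and SD (bars, n = 3) of 8 genes in control MEFs, at days 3, 5 and 7, in iPSCs and in ESCs, on linear axes that start at 0. Krt6a and Ovol1 are high at days 3 to 7 and low at both ends, Lin28a is raised from day 3, Esrrb and Nanog are high in iPSCs and ESCs, Dusp6 is lowest at days 3 and 5, and Fbn1 holds its MEF level until day 5.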

How the data were processed

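Per the submitters' methods, poly(A) RNA libraries (stranded kit, single-end reads) were checked with FastQC, trimmed with Cutadapt, aligned to GRCm38 with STAR and counted per gene with Rsubread. The authors deposited raw read counts per gene for 36 libraries, and a log2 matrix (regularised log) that was used here only as a check of the counts. Library preparation batches are mentioned by the study but not given by the labels.

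Counts of all 36 libraries were fitted in DESeq2 1.42.0 (R 4.3.3) with 1 factor of 12 stage and genotype groups. DEGs had a Benjamini-Hochberg FDR under 0.05 and an absolute log2 fold change over 1. DESeq2 gave no p for 6 genes under its outlier rule. On counts simulated for this comparison (21442 genes, 200 changed) DESeq2 recovered 188 changed genes with 9 false calls. The simulation gave all groups the same mean per gene, apart from the 200 genes changed in control day 3. It therefore cannot give the error rate of a comparison in which 44.9% of the genes were DEGs. The alternatives were edgeR 4.0.16, TMM and total-count scaling, a filter of 10 counts in 3 libraries, FDR alone, the fold threshold inside the test, the compared libraries alone, a replicate block and leaving out each library. Promoters came from RefSeq (GRCm38.p6), with 16537 windows for 13034 genes.

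Named genes were the 4 factors, the 8 largest changes in each direction among non-overlapping DEGs with a mean of at least 500 in the higher group (predicted genes left out), the first 3 measured and the 2 most changed DEGs in each direction of every list, and the 3 strongest interaction genes in each direction. Further list members, the epidermal genes outside the lists and the promoters shown were picked after their values were seen. The members and lists were chosen with earlier results of these data known. Values of some genes the rule names are not reported here, and they remain in the counts and medians of their lists.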

Additional observations from a re-analysis of the deposited data

Results flagged for a closer look

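Control and Zfp266 KO cells differed in their response from MEF to day 3 for 9 genes, by the interaction term of DESeq2 with FDR under 0.05 and an absolute difference over 1 on the log2 scale. Values are normalised read counts in the 3 libraries of each group.

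Fgfbp3, an FGF-binding protein gene, had 67.8, 54.5 and 56.2 in control MEFs and 445, 438 and 466 at day 3, against 168, 189 and 93.2 and then 403, 379 and 392 in KO cells, a difference (KO minus control) of -1.54 in DESeq2 (FDR 0.000155). Rab30, a small GTPase gene, had 456, 417 and 386 and then 188, 200 and 199.6 in control cells, and 1272, 1302 and 981 and then 160.3, 239 and 203 in KO cells (difference -1.47). In both genes the day 3 levels were close and the MEF levels differed between genotypes. B3gnt5, a glycosyltransferase gene, had a difference of -1.13, and its call was lost under 11 of 20 alternatives.

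Snx20, a sorting nexin gene, had 36.5, 51.5 and 56.2 and then 37.6, 32 and 43.6 in control cells, and 33.3, 39.7 and 24.4 and then 162, 206 and 153 in KO cells, a difference of 2.79 (FDR 8.17e-11 in DESeq2) that no alternative removed. Klc3, a kinesin light chain gene, had a difference of 2.33, lost under 8 of 20 alternatives. Lrmp had a difference of 6.46 at no more than 12.7 normalised read counts in any of the 12 libraries, and its call was lost under 4 of 20 alternatives and had no FDR under 2 of these 20.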

How the results depend on the processing

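Of 206 genes that the naming rule gave, without those not reported here, 177 were DEGs, and 140 of these kept their call in every alternative. The comparison of day 3 with MEFs gave 9629 DEGs, 9751 with edgeR, 9677 with TMM scaling, 9669 with total counts, 9220 with the compared libraries alone and 8493 after the filter on low counts. Leaving out 1 library gave 9327 to 9425 DEGs (4011 to 4161 higher, 5250 to 5372 lower). FDR alone gave 15193 DEGs, 7248 of them higher, and 15312 in KO cells. With the fold threshold inside the test 2701 genes were higher. For the interaction, FDR alone gave 28 genes, the threshold inside the test 1, edgeR 5, and leaving out 1 library 5 (without MEF control replicate 3) to 16 (without MEF KO replicate 1 or 2). Leaving out 1 library gave 9538 to 9712 DEGs in KO cells and 11535 to 11781 for ESCs. The causes were not tested.

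Genes near 0 that were no DEGs changed sign. With edgeR, TMM scaling, total counts and the compared libraries alone, Cd44 had log2 fold changes of 0.086, 0.086, 0.10 and 0.086, Jund 0.022, 0.023, 0.039 and 0.022, and Cdkn1a 0.0087, 0.0087, 0.025 and 0.0078. Nanog had 0.0033 with total counts and 0.027 with the compared libraries alone. Over the fits that left out 1 library, Cd44 ran from -0.039 to 0.030, Nanog from -0.52 to 0.22, Mcm2 from -0.045 to 0.072, Mcm4 from -0.021 to 0.098, Pax3 from -0.23 to 0.36 and Sox10 from -0.26 to 1.85.

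Deviations of same-numbered control libraries correlated at -0.035, -0.034 and 0.018, so no pairing by replicate number was seen. With 3 libraries per group this cannot exclude shared cultures or preparation dates. With the replicate block there were 9602 DEGs (4175 higher, 5427 lower), 9824 in KO cells, 10 interaction genes and 11802 for ESCs, Emcn lost its call, Xist gained one (-1.84, as also with the compared libraries alone, -1.38, and without day 3 replicate 1, -2.95) and Pax3 was at -0.025. No other named gene changed its call under the block.

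Depth limits genes with few reads in 1 group, and a fold against a group with no reads is a bound. All groups have 3 libraries, and 1 ESC clone gave the fibroblasts. No spike-in RNA was used, so normalised levels are relative, scaled by the DESeq2 size factors.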
